A study of Mus musculus with 33 samples.

Results

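Immediate early genes are the genes that a stimulated cell transcribes first, without new protein synthesis, and 38 of them were followed here through the mouse brain libraries of a study on the noncoding RNAs Cyrano, Cdr1as and miR-7. The 38 members were chosen by name, from genes known to be induced by neuronal activity or growth factors. Earlier results of these data were known when they were chosen. All of them were present among the 38393 features of every table. In neurons, calcium entry and growth-factor signalling reach the transcription factors CREB, SRF and MEF2, which switch these genes on within minutes. Their mRNAs are short-lived, and their products are transcription factors, brakes on the inducing signals, and proteins that act at synapses or are secreted. In brain tissue their transcript levels are widely used as a record of recent activity, and cortical and hippocampal neurons are known for strong induction of Fos, Arc and Egr1.

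The 33 libraries came from 1-month-old male C57Bl/6J mice, each library holding polyA-selected stranded RNA from flash-frozen cerebellum or cortex. Experiment 1A compared 3 wild-type (WT) cerebella with 4 cerebella of CyrMut mice, in which the miR-7 site of the long noncoding RNA Cyrano is mutated. Experiment 1B compared 4 WT cerebella with 4 cerebella of CyrKO mice (Cyrano-/-) and 4 of Mir7DKO mice (Mir7a1-/-; Mir7b-/-, with no change to Mir7a2 named in the labels). Experiment 2 held 4 WT and 3 Mir7DKO cerebella and 4 WT and 3 Mir7DKO cortices. The design compares libraries only within an experiment, and no stimulation, handling or time of collection is named in the labels.

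Library totals ranged from 6887853 to 24939149 counts, and the 38 members together took 0.0488 to 0.1254% of the counts in the 26 cerebellar libraries and 0.1344 to 0.1723% in the 7 cortical ones. The deleted RNA checked the labels where it could: Cyrano (1700020I14Rik) stood at 73.6 to 87.4 CPM (counts scaled to a common library size) in the CyrKO libraries and at 1557 to 1941 CPM in the WT libraries of experiment 1B. In CyrMut, where Cyrano itself is not removed, Cdr1as stood at 94.6 to 123 CPM in the mutant and at 1043 to 1230 CPM in WT. The tables used here give no reading of miR-7, so the Mir7DKO labels were not checked in this way. Tissue labels held: all 11 cerebellar marker genes were higher in WT cerebellum than in WT cortex, and 8 of 9 cortical marker genes were lower. Whole tissue was sequenced, so fewer cells that express a gene and less RNA in each cell cannot be told apart in any value below.

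The first comparison asked at what levels the 2 brain regions carry these genes without any mutation. In WT mice of experiment 2, 28 of the 36 members tested were lower in cerebellum than in cortex, 4 were higher, and 4 did not pass the test (edgeR quasi-likelihood test, Benjamini-Hochberg adjusted p under 0.05 over 14001 genes). Cerebellum and cortex differed in most genes, with 74.7% of all genes called, 37.4% lower and 37.3% higher, against 77.8% of the members lower and 11.1% higher. The median log2 change of the members was -1.40, against 0.01 over all genes tested. The 4 cerebellar and the 4 cortical libraries did not overlap in 22 members that were lower and 4 that were higher, where 68.7% of all genes had groups that did not overlap, 32% lower and 36.7% higher. Atf3 and Maff were too low in counts to be tested. Egr2, Egr3 and Fosb, counted among the lower members, had at most 1, 3 and 6 reads in any WT cerebellum. They passed the filter on low counts through cortex alone, so they could hardly have been called higher in cerebellum. The same holds for Nptx2 and Ptgs2, with at most 14 and 11 reads in any WT cerebellum. Cyr61 also needed its cortical counts to pass. Cell type markers differed between the tissues as well: all 8 microglia and macrophage markers were called lower in cerebellum (median -1.95; sums of 80.3 to 89.97 CPM in cerebellum and 291 to 313 CPM in cortex), and their part in the members' values was not tested. Same-numbered libraries of the tissues are not said to come from the same mouse, and tissue was compared without pairing.

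The EGR zinc-finger factors, which bind GC-rich promoter sites and carry the early response over to later genes, were lower in cerebellum in all 4 cases. Egr3 (ENSMUSG00000033730, chr14:70077203-70082614, plus strand, GRCm38) had 49.8, 33.6, 53.7 and 43.2 CPM in the 4 WT cortices and 0, 0.287, 0.162 and 0 CPM in the 4 WT cerebella. No cerebellar library came near the lowest cortical one, and only 5 reads were counted for Egr3 in all 4 cerebella together, against 1287 in the cortices. The ratio of cortex to cerebellum was 403, with an exact 95% interval of 172 to 1244 that covers counting error only. Egr2, which is also known for its part in myelination of peripheral nerves, had 5.10, 3.23, 2.77 and 7.41 CPM in cortex and a single read in 1 of the 4 cerebella (ratio 208, counting interval 36.8 to 8292).

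Egr1 (ENSMUSG00000038418, chr18:34859823-34864984, plus strand) kept a clear cerebellar level. It had 51.8, 37.4, 37.6 and 40.5 CPM in cerebellum and 234, 201, 189 and 237 CPM in cortex. The lowest cortex lay far above the highest cerebellum, and the log2 change was -2.38 (SE 0.08, edgeR adjusted p = 1.55e-17). Egr4, the remaining member of the family, changed by -2.64 (SE 0.19, edgeR adjusted p = 1.66e-11).

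The bZIP factors, whose FOS and JUN proteins pair to form AP-1, did not move as a block. Fos (ENSMUSG00000021250, chr12:85473890-85477273, plus strand), the gene most often read as a mark of activity, had 25.2, 2.20, 6.71 and 9.20 CPM in the WT cerebella and 10.9, 11.8, 4.52 and 16.5 CPM in the WT cortices. The cerebellar values enclosed all cortical ones, and the log2 change was -0.06 (95% confidence interval -0.91 to 0.78, edgeR adjusted p = 0.893). That call rested on 1 library: without the first WT cerebellum, whose Fos was highest, Fos changed by -0.83 with an edgeR adjusted p of 0.0277. Its relative Fosb had 0.101, 0.191, 0.485 and 0.166 CPM in cerebellum and 10.3, 6.33, 6.27 and 8.25 CPM in cortex. Fosb was thus near the limit of counting in every cerebellum and measured in every cortex, with a log2 change of -4.93 (SE 0.32, edgeR adjusted p = 2.41e-12). It entered that test through its cortical counts alone. Fosl2, which encodes the FOS relative FRA2, changed by -1.68 (SE 0.10).

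The JUN partners went in opposite directions. Junb, an AP-1 subunit with weaker activating ability than JUN, had 4.96, 2.01, 2.02 and 2.57 CPM in cerebellum and 23.1, 23.5, 14.4 and 28.7 CPM in cortex. Jun had 66.4, 63.8, 62.9 and 70.5 CPM in cerebellum and 39.2, 41.8, 41.0 and 45.6 CPM in cortex. All 4 cerebella were below every cortex for Junb and above every cortex for Jun. The log2 changes were -3.00 for Junb (SE 0.22, edgeR adjusted p = 1.41e-11) and 0.64 for Jun (SE 0.06, edgeR adjusted p = 2.51e-09).

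Among the other transcription factors, all 9 members were lower in cerebellum. Npas4, a bHLH-PAS factor induced by calcium entry in neurons, had 2.43, 1.15, 2.83 and 2.49 CPM in cerebellum and 14.9, 18.3, 16.0 and 20.6 CPM in cortex. The tissues were well apart, with a log2 change of -2.96 (SE 0.18, edgeR adjusted p = 4.78e-13). The orphan nuclear receptors of the NR4A family were graded: Nr4a1 changed by -2.24 (SE 0.19), Nr4a2 by -1.41 (SE 0.20) and Nr4a3 by -0.75 (SE 0.23, edgeR adjusted p = 0.0053). DESeq2, run on the same counts, did not call Nr4a3 (adjusted p = 0.0982). The Kruppel-like zinc fingers spanned Klf10 at -1.38, Klf2 at -0.99, Klf6 at -0.95 and Klf4 at -0.55. Klf4 fell below the threshold without the second cerebellum (-0.39, edgeR adjusted p = 0.0896), the second cortex (-0.49, adjusted p = 0.0643) or the fourth cortex (-0.49, adjusted p = 0.0719). Csrnp1, a nuclear protein induced by AXIN1 signalling, changed by -0.83 (SE 0.19).

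The genes that brake signalling or cell growth gave the most divided group, with 5 lower, 3 higher and 3 not called of 11. All genes were divided as well, with 37.4% called lower and 37.3% called higher. Dusp5 (ENSMUSG00000034765, chr19:53529109-53542431, plus strand), a nuclear phosphatase that inactivates ERK, had 94.5, 71.4, 78.7 and 74.0 CPM in cerebellum and 8.98, 6.75, 6.71 and 9.23 CPM in cortex. Every cerebellum held several times more Dusp5 than any cortex, opposite to most members, with a log2 change of 3.31 (SE 0.11, edgeR adjusted p = 3.93e-18). Dusp6, the cytoplasmic ERK phosphatase, went the other way by -1.75 (SE 0.09, edgeR adjusted p = 2.04e-14).

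Also higher in cerebellum were Ier2, a small nuclear protein, at 0.94 (SE 0.19, edgeR adjusted p = 9.84e-05), and Gadd45g, a stress sensor of p38 and JNK signalling, at 0.58 (SE 0.17, edgeR adjusted p = 0.00427). Ier2 had 10.2, 6.31, 6.39 and 8.71 CPM in cerebellum and 4.56, 3.38, 3.79 and 4.48 CPM in cortex, while Gadd45g had 8.40, 6.31, 7.52 and 5.89 CPM against 4.29, 4.22, 4.23 and 5.87 CPM. The groups were apart for both, though for Gadd45g the highest cortex lay just under the lowest cerebellum. Ier5, a relative of Ier2, had 10.9, 10.8, 10.8 and 10.0 CPM in cerebellum and 56.3, 49.1, 46.2 and 46.9 CPM in cortex, a log2 change of -2.24 (SE 0.08). Rgs2, a brake on G-protein signalling, changed by -1.99, Sik1, a salt-inducible kinase that restrains CREB coactivators, by -1.07, and Trib1, a pseudokinase, by -0.26 (edgeR adjusted p = 0.0386). Trib1 passed in the main test but not without the fourth cortex (-0.14, edgeR adjusted p = 0.263) or under DESeq2 (adjusted p = 0.0599). It was also lost without the second cerebellum, the third cerebellum or the second cortex, with edgeR adjusted p of 0.116, 0.0848 and 0.0522.

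The other 3 feedback genes did not pass. Dusp1, which inactivates p38, JNK and ERK, had 50.9, 15.8, 12.5 and 30.8 CPM in cerebellum and 21.1, 22.2, 15.7 and 24.8 CPM in cortex, a log2 change of 0.36 (SE 0.28, edgeR adjusted p = 0.252). As with Fos, the cerebella lay on both sides of the cortices, and without the third cerebellum Dusp1 was called at 0.62 (edgeR adjusted p = 0.0266). When genes of low count were kept in the fit, Dusp1 was called at 0.40 (edgeR adjusted p = 1.55e-05), though its groups overlapped. Btg2, an antiproliferative factor, stood at 0.15 (SE 0.14), and was called without the fourth cortex (0.36, edgeR adjusted p = 0.0127). Gadd45b stood at -0.06 (SE 0.15).

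All 7 effectors were lower in cerebellum. Nptx2, a secreted pentraxin that gathers AMPA receptors at synapses, had 1.11, 1.05, 1.13 and 0.912 CPM in cerebellum and 49.1, 39.7, 45.5 and 42.9 CPM in cortex. Vgf, the precursor of secreted neuropeptides, had 11.04, 10.6, 11.8 and 8.96 CPM against 143, 128, 142 and 129 CPM. Both genes were tight within each tissue and far apart between them, with log2 changes of -5.39 for Nptx2 (SE 0.13, edgeR adjusted p = 1e-20) and -3.69 for Vgf (SE 0.07, edgeR adjusted p = 2.33e-22). Ptgs2, the inducible cyclooxygenase, had 0.304, 1.05, 0.404 and 0.8292 CPM in cerebellum and 13.1, 9.84, 15.5 and 12.03 CPM in cortex, a change of -4.26 (SE 0.25). Nptx2 and Ptgs2 entered the test through their cortical counts alone.

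Arc (ENSMUSG00000022602, chr15:74669083-74672570, minus strand), a capsid-like protein that drives AMPA receptor removal, had 11.7, 17.0, 15.8 and 15.2 CPM in cerebellum and 84.7, 77.6, 45.4 and 149 CPM in cortex. Its cerebellar values were close together, its cortical values were spread over a wide range, and no cerebellum reached a cortex (log2 change -2.58, SE 0.23, edgeR adjusted p = 4.22e-10). Homer1, a scaffold of glutamate receptors, changed by -2.47 (SE 0.08). Counts were made per gene, so the inducible short Homer1 transcript and the constitutive long one were not separated. Bdnf, the neurotrophin, changed by -0.54 (SE 0.12, edgeR adjusted p = 0.000345) and Cyr61, a secreted matrix protein, by -1.16 (SE 0.31).

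**Figure D1:**
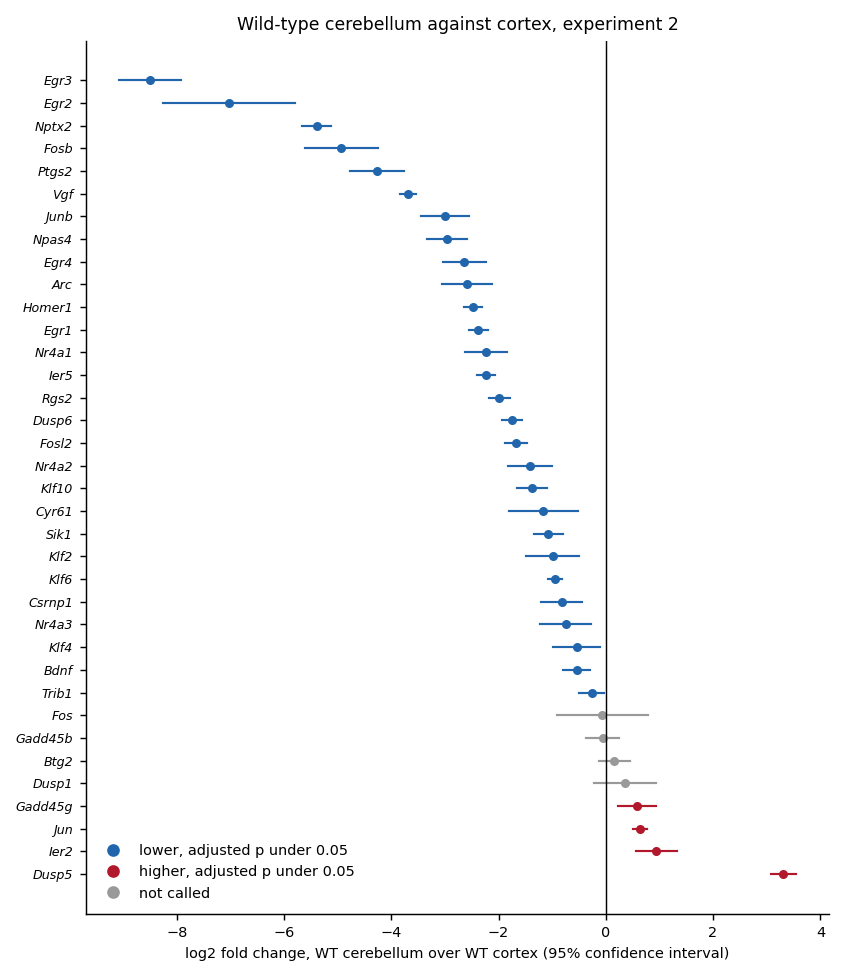
Log2 fold change of WT cerebellum over WT cortex (x axis) for the 36 immediate early genes tested in experiment 2 (y axis), 4 libraries a tissue, with 95% confidence intervals; points left of 0 are lower in cerebellum. Blue marks the 28 genes called lower, red the 4 called higher and grey the 4 not called, from Egr3 at -8.50 (edgeR fit, 5 reads in cerebellum) to Dusp5 at 3.31.

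Levels were also ordered per length, as counts per kilobase of annotated exon, scaled to library size as for CPM (RPKM), since CPM cannot be compared between genes. In WT cerebellum the order was led by Dusp5 at 32.2 ± 4.18 RPKM (SD, n = 4), Jun at 20.7 ± 1.06, Egr1 at 9.33 ± 1.52, Klf6 at 9.19 ± 0.718 and Dusp1 at 8.30 ± 5.29. Egr1, Klf6 and Dusp1 lay within their spread of one another, while Dusp5 and Jun did not. In WT cortex it was led by Egr1 at 48.0 ± 5.36, Vgf at 45.6 ± 2.78, Arc at 29.2 ± 14.2, Homer1 at 21.8 ± 3.16 and Nr4a2 at 17.7 ± 1.74 RPKM. Egr1 and Vgf were not apart by more than their spread. Fos ranked 12th of 38 in cerebellum (4.60 ± 4.26 RPKM) and 20th in cortex (4.65 ± 2.10 RPKM).

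Other genes of the pathway, from lists chosen with earlier results of these data known, were split between the tissues. So were all genes tested, with 37.3% called higher in cerebellum and 37.4% lower. Of 38 genes upstream of the response, 13 were higher in cerebellum, 20 were lower and 5 were not called. Among them were 2 calcium/calmodulin kinases that relay calcium signals to CREB and to synapses: Camk4 was higher in cerebellum by 1.62 and Camk2a lower by -5.14 on the log2 scale. The NMDA receptor subunits split the same way, with Grin2c higher at 2.96 and Grin2b lower at -4.82. Creb1 was higher by 0.45 and Srf lower by -0.95. Of 27 other inducible genes tested, 8 were higher, 13 were lower and 6 were not called, from Ier5l at -3.33 to Nptx1 at 1.22. The medians were -0.19 for the upstream list and -0.33 for the inducible list.

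The second question was how far the libraries of one group differ among themselves. The immediate early genes were more variable than most genes. The pooled SD of log2(CPM + 0.5) within groups had a median of 0.346 over the members and 0.148 over 15551 genes. Of the 38 members, 20 lay above the 90th percentile of all genes, and 30 lay above the 90th percentile of the genes at a like level (within 0.5 log2 units of mean CPM). Fos had an SD of 1.197, Nr4a3 of 1.04, Nr4a2 of 0.85, Nr4a1 of 0.76, Npas4 of 0.71 and Dusp1 of 0.70. Jun at 0.14 and Klf6 at 0.13 were below the median of all genes. Both were above the median of genes at their own like level, 0.0962 for Jun and 0.1015 for Klf6. Jun lay at percentile 86.4 and Klf6 at percentile 80.6 of those genes.

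In single libraries these spreads were large. Fos had 37.8, 85.3 and 3.94 CPM in the 3 WT cerebella of experiment 1A, and 12.9, 33.9, 72.2 and 3.54 CPM in the 4 of experiment 1B. Within each of these wild-type groups the highest library held about 20 times the Fos of the lowest (21.7-fold in 1A and 20.4-fold in 1B). Nr4a3 followed the same libraries, with 66.5, 116 and 10.9 CPM in 1A and 43.3, 65.0, 121 and 10.0 CPM in 1B. Egr1 did not: it had 37.5, 40.9 and 38.5 CPM in 1A and 31.9, 44.5, 45.6 and 38.6 CPM in 1B.

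**Figure D2:**
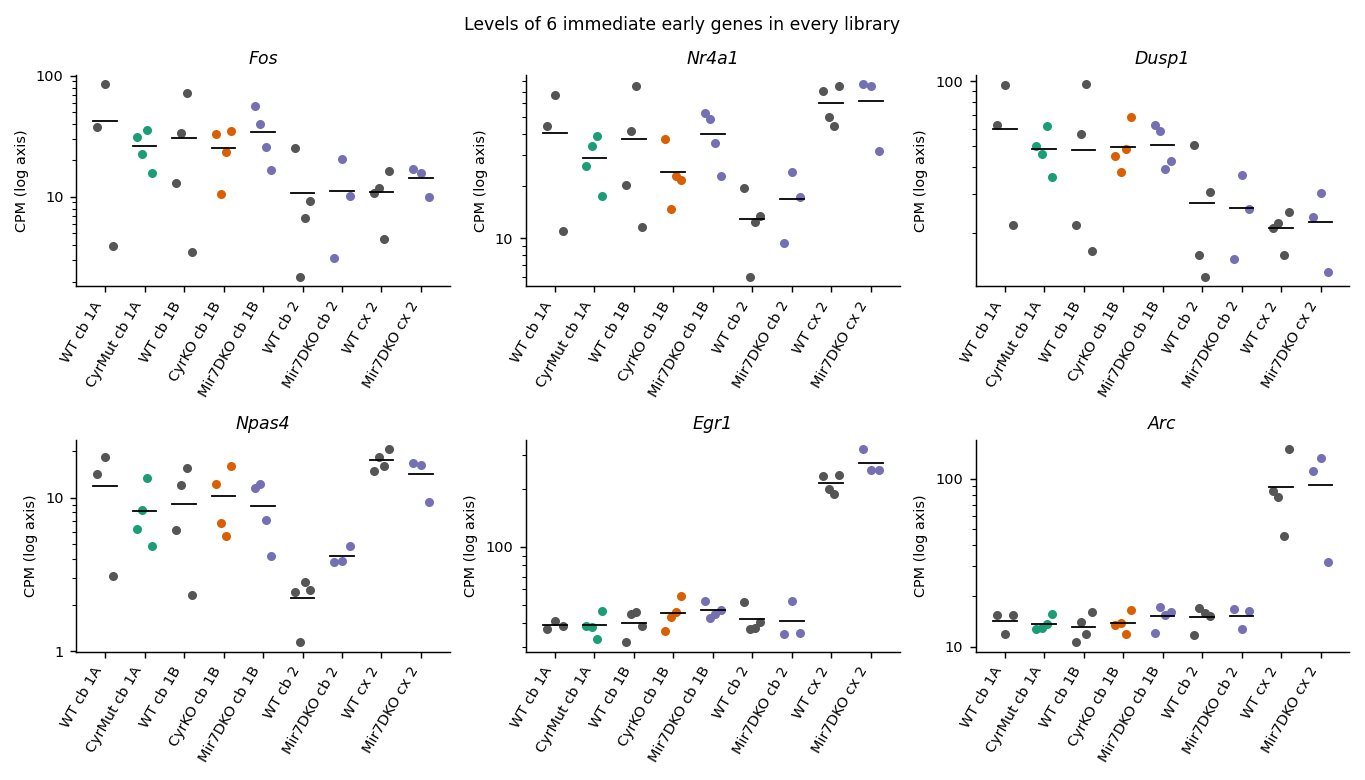
CPM on a log axis (y axis) of Fos, Nr4a1, Dusp1, Npas4, Egr1 and Arc in each of the 33 libraries, by group (x axis; cb, cerebellum; cx, cortex; the number is the experiment); points are libraries and black bars group means. Fos runs from 3.94 to 85.3 CPM within the WT cerebella of experiment 1A, while Egr1 stays between 37.5 and 40.9 CPM there and stands at 189 to 237 CPM in WT cortex.

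The spread was also taken in each tissue. The members' median SD was 0.354 in cerebellum (all genes 0.145) and 0.262 in cortex (all genes 0.131), and 27 of 38 members had the larger SD in cerebellum, against 56.6% of all genes. Nr4a2 had an SD of 0.95 in cerebellum and 0.13 in cortex, and Nr4a3 of 1.17 and 0.20. In the WT cortices Nr4a2 stood at 74.2, 62.0, 78.7 and 71.9 CPM, as steady as it was variable in cerebellum. Arc was the opposite, with an SD of 0.21 in cerebellum and 0.89 in cortex. Cortex is represented by 7 libraries of 1 experiment, and the difference between the tissues in spread was not tested.

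**Figure D3:**
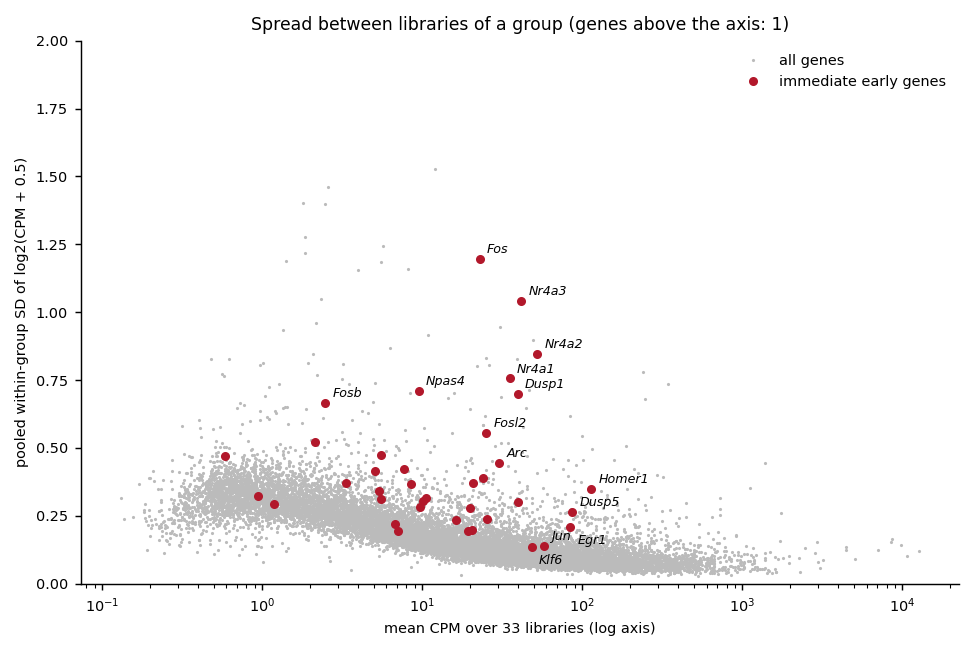
Pooled within-group SD of log2(CPM + 0.5) (y axis) against mean CPM over 33 libraries (x axis, log) for all 15551 genes (grey) and the 38 immediate early genes (red); 1 grey gene lies above the axis. Fos (1.197), Nr4a3 (1.04) and Nr4a2 (0.85) stand far above the genes of like level. Jun (0.14) and Klf6 (0.13) lie within the range of theirs, above their medians of 0.0962 and 0.1015.

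Libraries were high or low in many members at once. In the second WT cerebellum of experiment 1A, 34 of 38 members were above their group mean, with a median deviation of 0.30 on the log2 scale, and in the third only 7 were (median -0.33). In experiment 1B the third WT cerebellum had 30 members above the mean (0.28) and the fourth had 8 (-0.23). Over all genes the median deviation of these 4 libraries was between 0.0002 and 0.0038.

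To see which members moved with Fos, each gene's deviations from its group means were correlated with those of Fos over the 33 libraries. Of the 37 other members, 9 were called positive and none negative (100000 two-sided permutations within groups, adjusted over 15550 genes), where 0.624% of all genes were called positive and 0.437% negative. These 9 were Nr4a1, Dusp1, Nr4a2, Npas4, Trib1, Nr4a3, Klf2, Klf4 and Dusp5. Counted by size alone, 21 members had an r of at least 0.5 (4.9% of all genes) and 9 had an r of at least 0.7 (0.418%). At an unadjusted permutation p under 0.05 there were 24 members with a positive r (9.24% of all genes) and 1 with a negative r (8.71%). An r below 0 was found for 6 members, against 50.4% of all genes. The members' median r was 0.55, and the median over the other genes was -0.00.

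Nr4a1 was nearest to Fos, with a Pearson r of 0.94 and a Spearman rho of 0.91 (permutation test, adjusted p = 0.00864). Dusp1 had an r of 0.91 (rho 0.90), Nr4a2 of 0.91 (rho 0.80) and Npas4 of 0.83 (rho 0.80), each with the same adjusted permutation p. The WT libraries of experiment 1B had 20.3, 41.4, 74.9 and 11.7 CPM of Nr4a1 in the order in which Fos had 12.9, 33.9, 72.2 and 3.54. Dusp1 had 21.7, 56.8, 96.8 and 16.5 CPM there, in the same order. Not every group ranked so: in CyrKO, Nr4a1 had 37.5, 14.8, 22.7 and 21.6 CPM where Fos had 33.3, 10.6, 23.5 and 34.8, so that the library highest in Fos did not have the highest Nr4a1. Nr4a3 had an r of 0.79 (rho 0.71, adjusted permutation p = 0.0210), Klf2 of 0.76 (adjusted p = 0.0179), Klf4 of 0.66 (adjusted p = 0.0294) and Dusp5 of 0.52 (adjusted p = 0.0421). By Spearman's rho, 6 members passed.

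Arc and Ier5 were not called with Fos, and both had a negative r in every cerebellar set. Arc had an r of -0.05 over all libraries (rho -0.21), from -0.64 in experiment 1A and -0.35 in 1B to -0.90 in the cerebella and 0.84 in the cortices of experiment 2. Its relation to Fos thus had opposite signs in the tissues, in sets of 7 or 12 libraries. Ier5 had an r of -0.54 (rho -0.52, adjusted permutation p = 0.134). By set, Ier5 had -0.87 in experiment 1A, -0.50 in 1B, and -0.51 in the cerebella and 0.20 in the cortices of experiment 2. Egr1 had an r of 0.44, Ptgs2 of -0.38 and Nptx2 of -0.26, none of them called.

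Within the 4 sets of libraries the members' median r was 0.76 in experiment 1A (n = 7), 0.60 in 1B (n = 12), 0.45 in the cerebella of experiment 2 (n = 7) and 0.52 in the cortices (n = 7). The r was positive in all 4 sets for 19 members. Nr4a2 was positive in every cerebellar set and had an r of -0.54 in cortex. Without the 2 libraries farthest in Fos, the third WT of 1A and the fourth WT of 1B, 16 members had an r of at least 0.5, with Nr4a1 at 0.89, Dusp1 at 0.86, Nr4a2 at 0.82 and Npas4 at 0.67.

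Outside the list, the genes most like Fos by the same measure, with a mean of at least 5 CPM, were Irf2bp2 (r 0.90), Clk1 (0.84), Spen (0.83), Tiparp (0.81), Ythdc1 (0.81), Stac3 (0.80), Rbm3 (0.80) and Dnajb4 (0.80), each over 33 libraries. Tiparp is itself known as an inducible gene. The 8 marker genes of the choroid plexus, the secretory tissue of the ventricles, summed to 155 to 2440 CPM over all cerebella. In the cerebellum with the highest Fos of each group they summed to 191 (WT 1A), 2440 (CyrMut), 183 (WT 1B), 208 (CyrKO), 188 (Mir7DKO 1B), 210 (WT, experiment 2) and 1060 CPM (Mir7DKO, experiment 2). That library had the highest choroid sum of its group in CyrMut and the lowest in WT 1A, WT 1B and WT of experiment 2, and the part of choroid plexus tissue in the covariation was not tested.

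**Figure D4:**
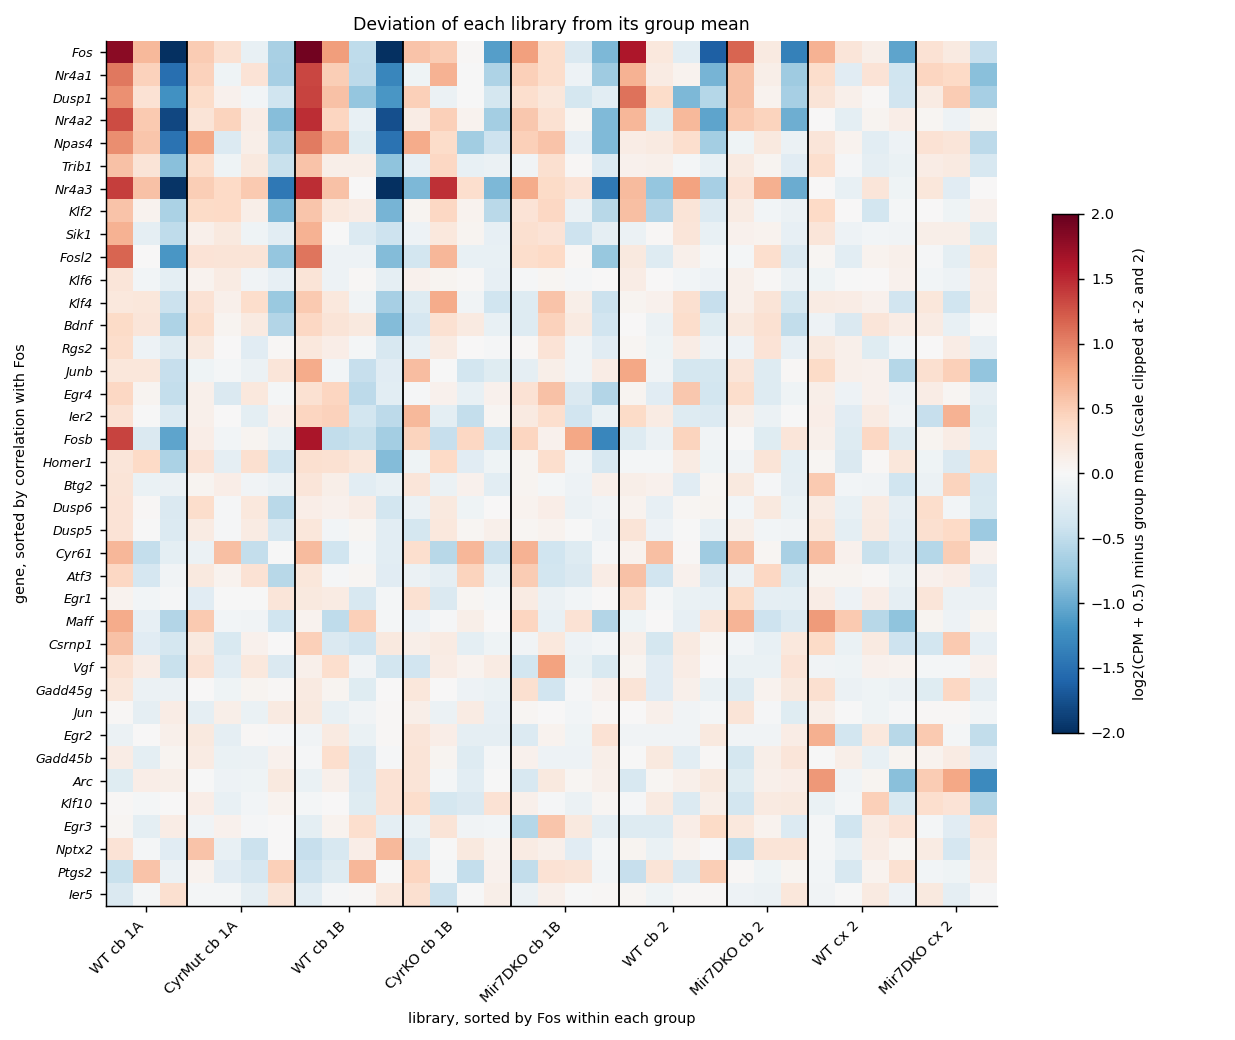
Deviation of each library from its group mean in log2(CPM + 0.5) (colour, red above and blue below, clipped at -2 and 2) for the 38 genes (y axis, sorted by correlation with Fos) and 33 libraries (x axis, by group and sorted by Fos within it). The top genes, led by Nr4a1 (r 0.94), change colour with Fos from left to right in the WT cerebella of experiments 1A and 1B. Ier5 at the bottom has a negative r (-0.54).

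Because members moved together, their promoters were read for the motifs of the factors known to induce them. The RefSeq table (GRCm38.p6; 250 bases before to 50 after each start) held 45 promoters of 29 members. Egr1, Egr3, Arc, Klf10, Ier2, Sik1, Trib1, Nptx2 and Vgf had no entry. The core of the cAMP response element, the site of CREB, is TGACG, read on either strand (CGTCA on the other). It was in 28 of 45 member promoters (62.2%), against 20.8% of all 32851 promoters. Counted by gene, 22 of 29 members held it in at least 1 promoter, and 17 of the 24 members with a single promoter did.

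The NR4A genes stood out in number. Nr4a1, Nr4a2 and Nr4a3 each held 4 copies, where 0.231% of all promoters hold 4 or more. Dusp1 held 3, of which 2 overlap as the full palindrome TGACGTCA with its first base 143 bases before the start, and Fos held 2, at 129 and 66 bases before the start. Of the 8 members called with Fos that had a promoter entry, all 8 held TGACG (median 2.5 copies), and of the 20 not called, 13 did (median 1). The 7 members without it were Fosl2, Jun, Klf6, Ier5, Dusp6, Gadd45b and Gadd45g, of which Fosl2 had an r of 0.72 with Fos (adjusted permutation p = 0.0617) and Klf6 of 0.68. These counts are descriptions of letters: member promoters also had a higher GC content (median 61.3%, all promoters 52.7%), and its part in the count was not tested.

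The stretches below show how the copies lie in the 5 promoters with 3 or more of them, among them the first of Homer1, which was not called with Fos (r 0.57), in that of Fos with 2, and in that of Jun with none. Each runs 5′ to 3′ on the strand of the gene, from the base 250 before the start down to the last base before any annotated exon (GENCODE M21). Capitals mark TGACG or CGTCA, the full TGACGTCA in Dusp1, and 1 match each to the EGR motif GCGNGGGCG in Nr4a1 and Nr4a2. In Nr4a3 the fourth copy lies inside an annotated exon and is not shown. Positions are chr15:101266596-101266845 (plus) for Nr4a1, chr2:57124004-57124253 (minus) for Nr4a2, chr4:48045055-48045152 (plus) for Nr4a3, chr17:26508520-26508722 (minus) for Dusp1, chr13:93303507-93303756 (plus) for Homer1, chr12:85473640-85473889 (plus) for Fos and chr4:95052223-95052472 (minus) for Jun.
Nr4a1: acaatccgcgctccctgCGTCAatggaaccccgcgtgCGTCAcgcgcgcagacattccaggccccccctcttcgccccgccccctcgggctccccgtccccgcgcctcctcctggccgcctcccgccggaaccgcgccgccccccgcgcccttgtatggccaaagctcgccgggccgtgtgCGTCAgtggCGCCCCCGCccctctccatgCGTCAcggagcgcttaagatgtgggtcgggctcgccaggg
Nr4a2: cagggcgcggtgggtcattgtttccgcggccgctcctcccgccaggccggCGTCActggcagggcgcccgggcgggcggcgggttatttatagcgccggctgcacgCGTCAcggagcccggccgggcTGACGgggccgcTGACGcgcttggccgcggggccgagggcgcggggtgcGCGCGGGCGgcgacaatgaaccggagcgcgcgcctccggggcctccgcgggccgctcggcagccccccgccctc
Nr4a3: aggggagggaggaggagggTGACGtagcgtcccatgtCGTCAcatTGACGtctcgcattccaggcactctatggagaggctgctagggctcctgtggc
Dusp1: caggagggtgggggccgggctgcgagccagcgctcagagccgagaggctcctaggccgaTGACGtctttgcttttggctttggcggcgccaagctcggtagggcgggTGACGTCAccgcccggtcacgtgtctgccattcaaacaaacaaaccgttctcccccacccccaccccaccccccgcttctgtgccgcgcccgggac
Homer1: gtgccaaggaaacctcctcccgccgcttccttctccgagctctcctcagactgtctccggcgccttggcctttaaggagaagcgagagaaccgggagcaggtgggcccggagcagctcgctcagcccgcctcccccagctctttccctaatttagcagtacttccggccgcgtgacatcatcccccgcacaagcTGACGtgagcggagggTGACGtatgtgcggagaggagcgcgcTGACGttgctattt
Fos: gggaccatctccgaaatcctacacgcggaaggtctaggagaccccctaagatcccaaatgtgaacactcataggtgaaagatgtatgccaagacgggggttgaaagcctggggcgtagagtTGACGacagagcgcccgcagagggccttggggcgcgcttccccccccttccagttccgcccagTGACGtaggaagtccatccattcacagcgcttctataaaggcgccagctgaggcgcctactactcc
Jun: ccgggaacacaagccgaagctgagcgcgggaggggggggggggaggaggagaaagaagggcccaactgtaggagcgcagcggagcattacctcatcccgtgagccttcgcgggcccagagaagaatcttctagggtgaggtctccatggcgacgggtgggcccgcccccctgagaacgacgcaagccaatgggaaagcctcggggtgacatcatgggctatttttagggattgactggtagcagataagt
In Nr4a1 and Nr4a2 the copies are spread over the window, in Nr4a3 the 3 shown lie in its first 50 bases, in Homer1 they begin 56, 40 and 14 bases before the start, and Jun has none.

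Of the other motifs, the EGR site GCGNGGGCG was in 10 of 29 members (5.55% of all promoters), the full TGACGTCA in 3 (1.79%), the AP-1 site TGANTCA in 2 (7.81%) and the CArG box of SRF in 2, Egr2 and Dusp5 (1.63%). A member was counted if any of its promoters held the motif, while each percentage is a share of single promoters, so their units differ. A CArG box outside this window would not be counted.

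The third question was whether loss of Cyrano, of its miR-7 site or of miR-7 changed these genes. No member was called in any of the 5 mutant comparisons (edgeR quasi-likelihood test, adjusted p under 0.05). Of all genes tested, 0.00673% were called in CyrMut, 0.022% in CyrKO, 0.00713% and 0.198% in the Mir7DKO cerebella of experiments 1B and 2, and 0.0436% in the Mir7DKO cortex, so few calls were there to be made. The standard errors were wide for the most variable members, and a missed threshold does not show equal levels. At an unadjusted p under 0.05 there were 0, 3, 0, 7 and 5 members in these comparisons, of 36, 33, 35, 33 and 36 tested. Of all genes, 4.98%, 7.35%, 3.68%, 6.78% and 5.77% reached that level. DESeq2 called no member in any of them either, and in the authors' deposited table of comparisons the smallest adjusted p of a member was 0.297, for Klf4 in the Mir7DKO cerebella of experiment 2.

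In CyrMut, 29 of 36 members were below WT and 7 above, with a median of -0.14. Of all genes tested, 49.1% were above WT, with a median of -0.003. Fos had 31.2, 22.7, 36.0 and 15.9 CPM in CyrMut and 37.8, 85.3 and 3.94 CPM in WT. The mutant libraries all lay between the lowest and highest WT library, and Fos changed by -0.71 (95% confidence interval -2.02 to 0.59, edgeR adjusted p = 0.949). Without the second WT library the members' median turned to 0.14, and without the third it was -0.25. The smallest unadjusted p values were those of Ptgs2 and Klf10. Ptgs2 had 1.06, 0.277 and 0.473 CPM in WT and 0.844, 0.744, 1.14 and 1.69 CPM in CyrMut, overlapping groups with a change of 0.86 (SE 0.44, edgeR adjusted p = 0.944). Its reads were 24, 7 and 6 in WT and 14, 10, 25 and 27 in CyrMut. Ptgs2 passed the filter on low counts through the CyrMut libraries, and its WT libraries alone would not have passed. Klf10, a TGF-beta inducible repressor, had 17.3, 18.1 and 17.96 CPM in WT and 14.2, 15.2, 17.3 and 16.6 CPM in CyrMut, with 1 mutant library at the level of the lowest WT one (-0.17, SE 0.09). No member had groups that did not overlap (5.34% of all genes). The choroid plexus markers differed at the same time, with 8 of 8 higher in CyrMut (median 1.999, none called), summing to 191 to 833 CPM in WT and 247 to 2440 CPM in CyrMut. Erythrocyte genes differed too, with 5 of 5 lower in CyrMut (median -1.17, none called) and sums of 370 to 1684 CPM in WT and 295 to 454 CPM in CyrMut. The part of either tissue in the members' values was not tested.

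In CyrKO, 13 of 33 members were above WT and 20 below (median -0.10), where 49.5% of all genes were above. The members' median was 0.01 without the third WT library, -0.21 without the fourth and -0.22 without the first CyrKO library. None had groups that did not overlap (4.03% of all genes). Sik1 had 9.19, 11.1, 18.4 and 8.27 CPM in WT and 8.93, 6.76, 7.94 and 7.07 CPM in CyrKO. Only the highest CyrKO library exceeded the lowest WT one, and the change was -0.60 (SE 0.22, edgeR adjusted p = 0.677). Csrnp1 had 4.63, 4.94, 8.76 and 7.14 CPM in WT and 5.14, 4.24, 3.92 and 5.003 CPM in CyrKO, overlapping groups with a change of -0.48 (SE 0.20). Klf2 stood at -0.66 (SE 0.30). All 3 rested on an unadjusted p under 0.05, which 4.46% of all genes reached in that direction. Fos had 33.3, 10.6, 23.5 and 34.8 CPM in CyrKO, inside the WT range of 3.54 to 72.2, with a change of -0.22 (95% confidence interval -1.51 to 1.07). Erythrocyte genes were 5 of 5 higher in CyrKO (median 0.46, none called), at 231 to 1741 CPM in WT and 702 to 1346 CPM in CyrKO, and their part was not tested.

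In the Mir7DKO cerebella of experiment 1B, 17 of 35 members were above WT and 18 below, with a median of -0.00 that ran from -0.13 without the fourth WT library to 0.10 without the third. None had groups that did not overlap (2.54% of all genes). Above WT were 50.3% of all genes tested. These Mir7DKO libraries share their WT group with CyrKO. The smallest unadjusted p was that of Egr1, with 52.3, 42.7, 44.7 and 46.8 CPM in Mir7DKO and 31.9, 44.5, 45.6 and 38.6 CPM in WT. The groups overlapped, and the change of 0.22 (SE 0.11) had an edgeR adjusted p of 1.00. Arc stood at 0.22 (SE 0.14) and Fos at 0.22 (95% confidence interval -1.14 to 1.57), the latter on 56.0, 40.1, 25.7 and 16.7 CPM in Mir7DKO. Erythrocyte genes were 5 of 5 lower in Mir7DKO (median -0.85, none called; 199 to 591 CPM), and their part was not tested.

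The Mir7DKO cerebella of experiment 2 had the most members near the threshold, with 6 higher and 1 lower at an unadjusted p under 0.05 (3.9% and 2.88% of all genes). The members' median was 0.05, between 0.01 without the second WT library and 0.15 without the first Mir7DKO library. Klf4 (ENSMUSG00000003032, chr4:55527143-55532466, minus strand), a zinc-finger factor of growth arrest, had 4.19, 5.90 and 6.66 CPM in Mir7DKO and 3.24, 2.10, 3.96 and 3.32 CPM in WT. Every mutant library was above every WT one, and the change was 0.81 (SE 0.21, 95% confidence interval 0.37 to 1.25, edgeR adjusted p = 0.179). Npas4 (ENSMUSG00000045903, chr19:4984355-4990316, minus strand) had 3.78, 3.88 and 4.81 CPM in Mir7DKO and 2.43, 1.15, 2.83 and 2.49 CPM in WT. Again the groups were apart, and the change was 0.88 (SE 0.24, 95% confidence interval 0.39 to 1.38, edgeR adjusted p = 0.205). Ptgs2 had 1.29, 1.24 and 1.12 CPM against 0.304, 1.05, 0.404 and 0.8292 CPM, also apart, with a change of 0.90 (SE 0.38, edgeR adjusted p = 0.652). Its reads were 16, 16 and 14 in Mir7DKO and 3, 11, 5 and 10 in WT. Ptgs2 passed the filter on low counts through the Mir7DKO libraries, and its WT libraries alone would not have passed.

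Klf4, Npas4 and Ptgs2 were the members higher without overlap, and Nptx2 was the 1 lower without overlap. Of all genes, 6.63% had groups that did not overlap (3.46% higher and 3.17% lower). Nptx2 had 0.885, 0.311 and 0.882 CPM in Mir7DKO and at least 0.912 CPM in WT, a change of -0.60 (SE 0.38). Its reads were 11, 4 and 11 in Mir7DKO and 11, 11, 14 and 11 in WT, so the groups were apart only after scaling. Nptx2 passed the filter on low counts through the WT libraries, and its Mir7DKO libraries alone would not have passed. Fosl2 had 12.4, 14.9 and 19.5 CPM in Mir7DKO and 12.8, 10.7, 11.9 and 9.20 CPM in WT, overlapping by 1 library (0.49, SE 0.14, edgeR adjusted p = 0.24). It was called without the first Mir7DKO cerebellum, at 0.63 (edgeR adjusted p = 0.0488). Klf10 had 20.04, 13.4 and 19.9 CPM against 13.0, 14.4, 10.9 and 15.0 CPM (0.41, SE 0.14), and was called without the second Mir7DKO cerebellum, at 0.59 (edgeR adjusted p = 0.0371). Homer1 stood at 0.21 and Klf6 at -0.19, and Fos at 0.09 (95% confidence interval -0.88 to 1.06).

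In this comparison the choroid plexus markers moved too, with 6 of 6 tested higher in Mir7DKO, 3 of them called, and sums of 210 to 256 CPM in WT and of 1430, 1060 and 212 CPM in Mir7DKO. The third Mir7DKO library, at 212 CPM, had the highest Klf4, Npas4 and Fosl2 of its group and the lowest Ptgs2. Klf10 was nearly equal in that library and in the first, at 1430 CPM of choroid markers. The part of choroid plexus tissue in the members' values was not tested. When genes of low count were kept in the fit, 6 members passed: Klf4, Npas4, Fosl2, Klf10, Nr4a1 and Nr4a3 (edgeR adjusted p from 0.000642 to 0.0490), beside 184 genes in all against 28.

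In the Mir7DKO cortex, 23 of 36 members were above WT and 13 below (median 0.02, and 0.13 without the fourth WT or the third Mir7DKO library). The share of all genes above WT was 51.6%. Egr1 had 322, 251 and 252 CPM in Mir7DKO and 234, 201, 189 and 237 CPM in WT. It was the 1 member whose groups did not overlap (6.93% of all genes, 3.76% higher), and the change was 0.35 (SE 0.08, 95% confidence interval 0.17 to 0.53, edgeR adjusted p = 0.489). Egr1 and Homer1 (0.28) passed when genes of low count were kept (edgeR adjusted p = 1.43e-07 and 9.51e-05). The change of Egr1 was the same in that fit (0.35), and many more genes were called in it than the 6 of the main fit. Fosl2 stood at 0.29 (SE 0.10, edgeR adjusted p = 0.817), Nr4a3 at 0.26 and Csrnp1 at -0.54, all at an unadjusted p under 0.05 that 5.77% of all genes reached. Arc had 110, 133 and 31.7 CPM in Mir7DKO and 45.4 to 149 CPM in WT, with a change of 0.03 (95% confidence interval -0.67 to 0.73), and Fos stood at 0.35 (95% confidence interval -0.17 to 0.87). The choroid plexus markers went the other way here, 5 of 5 tested lower in Mir7DKO and 1 called (WT 258 to 931 CPM, Mir7DKO 261 to 278 CPM); their part was not tested.

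**Figure D5:**
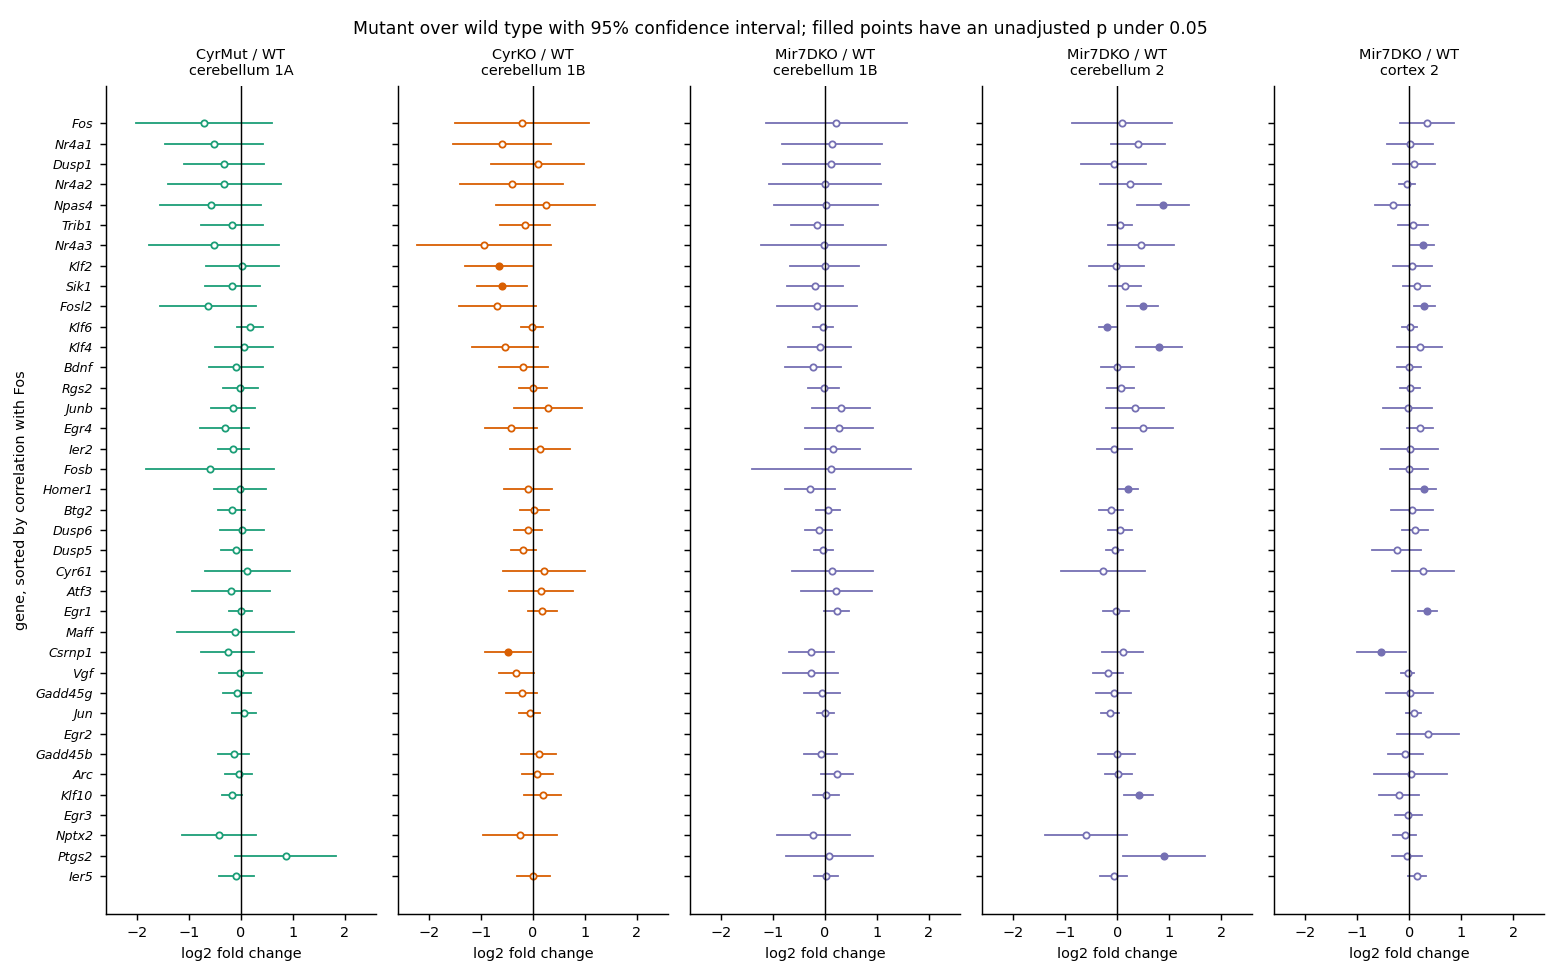
Log2 fold change of mutant over WT (x axis) with 95% confidence intervals for the members tested (y axis, sorted by correlation with Fos) in the 5 mutant comparisons, 3 or 4 libraries a group; filled points have an unadjusted p under 0.05. No member passed the adjusted threshold of 0.05, the interval in CyrMut is widest for Fos (-2.02 to 0.59), and Klf4 (0.81) and Npas4 (0.88) stand right of 0 in the Mir7DKO cerebella of experiment 2.

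Whether the Mir7DKO change differed between tissues or experiments was tested by interaction terms. Between cortex and cerebellum of experiment 2, no member of 37 was called (0.155% of all genes), and 6 had an unadjusted p under 0.05 (4.92% of all genes). Npas4 had the largest departure, -1.20 (SE 0.31, edgeR adjusted p = 0.236), from 0.88 in cerebellum and -0.32 in cortex. Between the cerebella of experiments 2 and 1B, edgeR called 0 of 36 members and 0% of 14532 genes. DESeq2 called 3 genes, and 2 members, Klf4 and Maff, were at an unadjusted p under 0.05, as were 3.83% of all genes. Klf4 differed by 0.91 (SE 0.40, edgeR adjusted p = 0.999), from 0.81 in experiment 2 and -0.11 in 1B.

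By role, the medians in the Mir7DKO cerebella of experiment 2 were 0.21 for the 4 bZIP factors tested, 0.40 for the 9 other transcription factors, of which 7 were higher, -0.04 for the 11 feedback genes and -0.00 for the 7 effectors. In CyrMut the same groups stood at -0.19, -0.26, -0.14 and -0.02. The upstream and the other inducible genes had no call in any mutant comparison, with medians between -0.02 and 0.02 for the former and between -0.16 and 0.00 for the latter.

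Since Mir7DKO mice lack Mir7a1 and Mir7b, the members' 3′ UTRs were searched for matches to the miR-7 seed. The mature miRNAs are printed from RefSeq (GRCm38.p6), with the seed, bases 2 to 8, in capitals. Both have the same seed and so the same matches.
miR-7a-5p: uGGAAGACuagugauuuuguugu
miR-7b-5p: uGGAAGACuugugauuuuguuguu
A site was a 7-base match to the seed, or to seed bases 2 to 7 followed by A, or both together (8 bases), in the longest annotated 3′ UTR of the gene. At least 1 site was found in 15 of 38 members (39.5%), against 29.1% of 13201 genes tested in the cerebella of experiment 2. The 38 include members too low in counts to be tested there. Of the members tested there, 12 held a site and 21 did not.

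In the Mir7DKO cerebella of experiment 2, 11 of the 12 tested members with a site were above WT (median log2 change 0.33), and 7 of the 21 without one were (median -0.02). Ptgs2, among the 12, passed the filter on low counts through its Mir7DKO libraries. In experiment 1B, 5 of 13 with a site were above WT (median -0.04) and 12 of 22 without (0.01). In cortex the counts were 9 of 14 (median 0.11) and 14 of 22 (0.02). In the same tissue the medians thus had one order in experiment 2 and the other in 1B, and no difference between members with and without a site was tested. The share above WT among all genes with a site was not taken.

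The sites of several members near the threshold in experiment 2, and the 8-base sites of Nr4a3, Csrnp1 and Egr3, are shown with their surroundings, as DNA of the gene's strand (GENCODE M21, GRCm38), with the match in capitals. Their positions are chr4:55528041-55528062 (minus) for Klf4, chr19:4986264-4986285 (minus) for Npas4, chr5:32153722-32153743 (plus) for Fosl2, chr1:150105856-150105877 (plus) for Ptgs2, chr4:48086071-48086092 (plus) for Nr4a3, chr9:119971982-119972003 (minus) for Csrnp1, chr14:70080605-70080626 (plus) for Egr3 and chr12:85476525-85476546 (plus) for Fos. Where a gene holds 2 sites (Klf4, Ptgs2 and Fos), the first is shown. Klf10 and Nr4a1, also called in the cerebella of experiment 2 when genes of low count were kept, held no site.
Klf4: cctttcacactGTCTTCCcacg
Npas4: tcaagcaaagttTCTTCCActa
Fosl2: gaagcagatgacTCTTCCActg
Ptgs2: tttcatgtaacaTCTTCCAtaa
Nr4a3: agtgttcttctGTCTTCCAtag
Csrnp1: tccaaacagagGTCTTCCAcct
Egr3: cggaggagatgGTCTTCCAtct
Fos: aggagaaacacGTCTTCCctcg
The sites of Nr4a3, Csrnp1 and Egr3 match all 8 bases, as does the second site of Ptgs2, which is not shown; Egr3 was too low in cerebellum to be tested there. In experiment 2, Nr4a3 stood at 0.45 in cerebellum and 0.26 in cortex, Csrnp1 at 0.10 and -0.54, and Ptgs2 at 0.90 and -0.04. Fos, with 2 sites, stood at 0.09 and 0.35.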

How the data were processed

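Gene counts were made by the authors from stranded polyA-selected reads of 33 libraries, with STAR 2.4, HTSeq 0.6.1p1 and the mm10 (GRCm38) genome named in the submitters' processing notes; for the strand setting and annotation release, nothing was given in the sources used here. The deposited tables also hold a normalised signal (counts divided by DESeq2 size factors), log2 changes of mutant over WT, Wald scores with their SE, and p-values, all from DESeq2 1.10 per the submitters' processing notes and the file headers. Only raw counts entered the tests, and the authors' adjusted p-values are quoted where named.

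Replicates are biological, per the series' design text. Within-group pairs of libraries differed beyond sampling noise in all 45 cases, and 6 libraries hold more counts than the reads their labels state. Each comparison was fitted with edgeR 4.0.16 under R 4.3.3 on its own groups, by the quasi-likelihood test after TMM scaling and after filterByExpr had removed genes of low count (minimum 10), with Benjamini-Hochberg adjustment over all genes tested and a threshold of 0.05. CPM used TMM-scaled library sizes. Covariation with Fos used log2(CPM + 0.5) minus the group mean, with 100000 permutations within groups; adjustment ran over all genes rather than over the members as first planned. Confidence intervals are at 95%. The scripts were tested on simulated data. Sequences came from RefSeq tables and GENCODE M21. Alternatives were DESeq2 1.42.0, RLE scaling, no filter, a replicate block, 1 joint fit, a pseudocount of 2 and leaving out each library.

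The members and gene lists were chosen with earlier results of these data known. Genes described in full were Fos, Arc, Egr1, Npas4, Nr4a1 and Junb, any member called in a mutant comparison, the 2 with the smallest p in each of those, the 6 largest changes in each direction between WT tissues, the 4 highest and 3 lowest correlations with Fos and the 3 largest SDs, 25 in all. Members outside that rule are given with fewer values.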

Additional observations from a re-analysis of the deposited data

Results flagged for a closer look

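In 9 of 150 sets of 4 libraries, over the 25 members described in full, 1 library stood apart from the other 3 by a gap above the 95% critical value of Dixon's test, and chance gives about 1 in 20. The values are CPM, and no explanation was weighed.

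Fosl2 and Nr4a3 were both low in the fourth CyrMut cerebellum, at 11.49 CPM against 24.03 to 24.29 for Fosl2 and at 14.8 CPM against 53.98 to 58.93 for Nr4a3; Fos was also lowest there, at 15.9 CPM. Fosl2 was high in the first CyrKO cerebellum, at 27.88 CPM against 13.37 to 15.58. Fosb was high in the third WT cerebellum of experiment 1B, at 4.432 CPM against 0.495 to 0.6726, the library that also had the highest Fos of its group. The second Mir7DKO cerebellum of experiment 1B was high in Csrnp1 (6.12 CPM against 4.837 to 5.028) and in Vgf (23.82 CPM against 10.24 to 12.23). The fourth WT cortex was high in Sik1 (16.79 CPM against 13.08 to 13.54) and in Gadd45g (5.875 CPM against 4.219 to 4.291), and it also had the highest Arc of its group. Egr2 stood at 0.09557 CPM in the second WT cerebellum of experiment 2, a single read, and at 0 in the other 3.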

How the results depend on the processing

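No tested result changed direction past the threshold under the alternatives run, but the members' median moved to 0.14 in CyrMut without the second WT library and to 0.01 in CyrKO without the third. The member counts of the CyrMut, CyrKO and Mir7DKO 1B comparisons were 0 under every one. Without the filter on low counts, 6 members (of 184 genes) were called in the Mir7DKO cerebella of experiment 2, 2 members (of 48) in cortex and 3 (Egr1, Npas4 and Klf10, of 74 genes) in the difference between those tissues, where edgeR's main counts were 28, 6 and 23 genes. Without it, genes called went from 1 to 43 in CyrMut, from 3 to 10 in CyrKO, from 1 to 4 in Mir7DKO 1B and from 0 to 19 in the difference between experiments. DESeq2 called 4 genes in CyrMut, 5 in Mir7DKO 1B, 12 in the difference between tissues and 3 in that between experiments. A joint fit over the 4 groups of experiment 2 called 55 genes in its cerebella. Leaving out 1 library at a time gave 1 to 17 genes in CyrMut, 3 to 10 in CyrKO, 0 to 2 in Mir7DKO 1B, 3 to 70 (and 0 to 1 member) in Mir7DKO cerebellum 2, 4 to 11 in cortex, 1 to 48 and 0 to 1 in the differences, and 30 to 33 members between WT tissues (main 32). The causes were not tested.

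Replicate numbers are shared by the groups but did not pair the libraries: correlations of same-numbered libraries' deviations ran from -0.216 to 0.305, and no comparison had every pair above 0.1. In cortex each of the 3 numbers correlated best with itself, a hint from the data and not from the design. With the replicate block, 2 members were called in cortex (Egr1 at 0.40, edgeR adjusted p = 0.000222; Homer1 at 0.28, adjusted p = 0.0266) among 19 genes, 2 genes in Mir7DKO 1B and 2 in the difference between experiments. Counting depth limits Egr2, Egr3, Atf3, Maff, Fosb, Ptgs2 and Nptx2 in cerebellum, where a missing call cannot be read as an equal level.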
